A study of Homo sapiens with 6 samples.

Results

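The nuclear pore complex genes described here are 31 genes that encode nucleoporins or their close partners. They were picked out by gene symbol, and all 31 matched a row among 60564 rows with an Ensembl gene identifier. Their transcripts were counted by RNA sequencing in 6 libraries from HepG2 cells. HepG2 is an established human liver tumour line (wild type, per the labels) with many traits of hepatocytes. In 3 libraries the cells had received formononetin, a methoxylated isoflavone of legumes, for 72 h, with the dose given as 625 μm in the labels' spelling. The cells of the 3 control libraries are labelled with the culture medium DMEM only, with neither a solvent control nor a culture time. All cells grew in DMEM with fetal calf serum, penicillin and streptomycin.

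Nuclear pores are the channels through which proteins and RNA cross the nuclear envelope. A symmetric scaffold of outer and inner rings is held in the envelope by membrane proteins and lines a central channel, whose proteins carry disordered stretches rich in phenylalanine and glycine (FG) that bind transport receptors. A basket of filaments faces the nucleus, and shorter filaments with an RNA export platform face the cytoplasm. Pores are taken apart and rebuilt at each open mitosis, and new pores are also inserted during interphase. The 31 genes were grouped by the place of their proteins, with 9 in the Y complex of the outer rings, 5 in the inner ring, 4 in the membrane ring, 4 in the central channel, 3 in the basket and 6 in the cytoplasmic filaments and RNA export platform.

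Most transcripts of the pore scaffold were modestly higher in formononetin libraries, those of the cytoplasmic face largely did not pass the test, and the basket filament gene TPR was lower. Differences between the subcomplexes were not tested. A gene without a call can have changed as much as a called one, as NUP160 (raised) and RAE1 (not called) both had a log2 fold change of 0.19. Of the 31 genes, 18 rose, 1 fell and 12 were not called (quasi-likelihood test of edgeR at an adjusted p under 0.05, Benjamini-Hochberg over all 22230 genes tested). That is 61.3% of the members called, against 20.7% of all genes tested. Rises made up 58.1% of the members and 12.0% of all genes, and falls 8.71% of all genes. Abundant genes were called more often, and among the 9068 genes at least as abundant as the scarcest member 36.3% were called, 23.0% upwards and 13.3% downwards. The rises were small, from 13.7% to 54.2%, which is 0.19 to 0.62 on the log2 scale. The median log2 fold change was 0.27 over the members, -0.0111 over all genes and 0.0557 over genes at least as abundant as the scarcest member. All 31 genes passed the filter on low counts, with 320 to 17880 counts per gene and library. Without control replicate 3 or formononetin replicate 1 the rises numbered 11, and under upper quartile scaling 13, where all genes split into 1813 raised and 2737 lowered in place of 2659 and 1937.

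Libraries held 30848848 to 36243606 counts on named genes in control and 37465148 to 45682722 in formononetin libraries, so all formononetin libraries were deeper. Pore genes took 0.292% to 0.300% of these counts in control and 0.338% to 0.350% in formononetin libraries. Control replicate 1 stood apart from the other libraries on the second principal component of all genes (16.5% of the variance), at 47.3 against -25.4 to 5.22. Over the pore genes it did not stand apart, and the median log2 ratio to the control mean was -0.001, 0.001 and -0.009 over the controls, in replicate order, and 0.274, 0.258 and 0.214 over the treated libraries. All 7 hepatocyte markers were detected in every library. ALB, AFP, APOB, TTR and SERPINA1 fell, APOA1 was not called (log2 fold change 0.07) and HNF4A, a transcription factor of hepatocytes, rose by 0.44 ± 0.09 (adjusted p = 0.012). Their summed level, mostly APOB, was 39344 to 40638 CPM (counts scaled to a common library size) in control and 33804 to 35117 in formononetin libraries. Of 7 markers of blood, endothelial and fibroblast cells, PTPRC and COL3A1 had 0 counts throughout, and VWF, LYVE1 and COL1A1 lay at 1.01 CPM or below. The list summed to 24.8 to 30.1 CPM in the controls and 31.8 to 34.8 CPM after formononetin, mostly PECAM1, which was not called (adjusted p = 0.299). CD68, a lysosomal protein of macrophages, was the only marker of the list that was called, at 3.88, 3.77 and 2.39 CPM in the controls and 5.26, 7.79 and 7.13 CPM after formononetin (1.01 ± 0.23, adjusted p = 0.0204). The part of these markers in the results was not tested. Fewer cells of a kind and less RNA per cell cannot be told apart in such bulk samples. Whether replicates are separate cultures is not stated, and p-values then cover only the spread among these libraries, which may be technical.

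**Figure D1:**
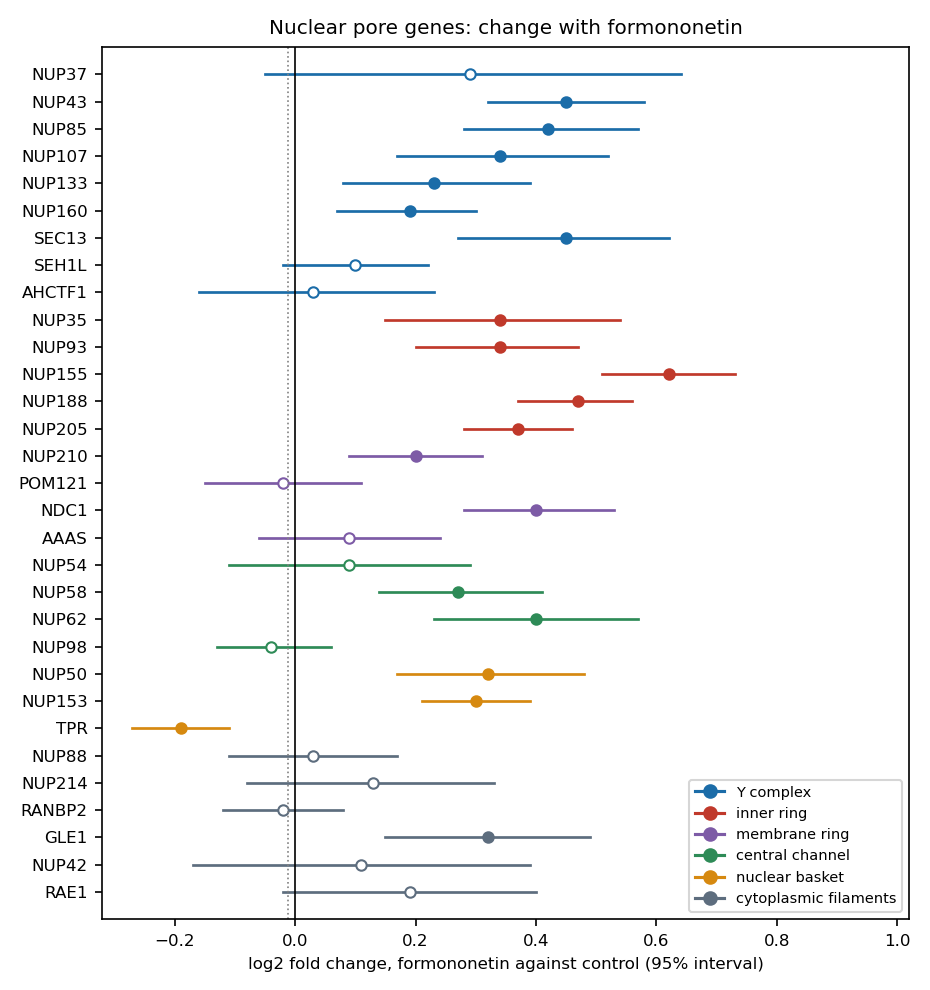
Log2 fold change of formononetin against control for each of 31 nuclear pore genes (horizontal axis), with bars for the 95% interval of the fit and colours for the pore subcomplex; filled points passed the adjusted threshold and the dotted line is the median of all genes. All 5 inner ring genes lie at 0.34 or above, and TPR is the only filled point below 0, at -0.19.

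The start regions of 3 genes are shown because they belong to the largest rise (NUP155), the next largest (NUP188) and the only fall (TPR). Each is the RefSeq window of 250 bases before to 50 bases after the gene's start (GRCh38.p14), read along the gene's own strand, with capitals for matches to 5 motifs searched on both strands.
NUP155, chr5:37371057-37371356, minus strand: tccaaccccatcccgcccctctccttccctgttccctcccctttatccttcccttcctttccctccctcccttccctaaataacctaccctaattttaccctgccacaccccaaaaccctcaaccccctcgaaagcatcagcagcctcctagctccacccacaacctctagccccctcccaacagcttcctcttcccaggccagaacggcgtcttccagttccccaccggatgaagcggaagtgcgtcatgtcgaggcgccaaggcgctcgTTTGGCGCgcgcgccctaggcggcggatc
NUP188, chr9:128947449-128947748, plus strand: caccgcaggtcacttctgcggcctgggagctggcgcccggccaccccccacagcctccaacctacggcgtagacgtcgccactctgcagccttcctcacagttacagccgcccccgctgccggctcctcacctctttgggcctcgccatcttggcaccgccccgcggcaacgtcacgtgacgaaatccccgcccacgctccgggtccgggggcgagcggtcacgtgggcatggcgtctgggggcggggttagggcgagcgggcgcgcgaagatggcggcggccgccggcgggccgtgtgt
TPR, chr1:186375204-186375503, minus strand: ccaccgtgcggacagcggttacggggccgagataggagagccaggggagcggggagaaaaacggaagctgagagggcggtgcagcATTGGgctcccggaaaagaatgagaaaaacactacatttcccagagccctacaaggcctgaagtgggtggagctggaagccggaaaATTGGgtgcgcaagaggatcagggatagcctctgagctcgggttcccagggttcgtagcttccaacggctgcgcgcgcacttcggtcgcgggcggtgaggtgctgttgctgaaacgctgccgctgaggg
The motifs were TTTGGCGC or TTTCGCGC (written E2F here), CCGGAAG (ETS factors), the NRF1 consensus, CCAAT (NF-Y) and TTTGAA (the cell cycle homology region, CHR). The NUP155 window held 1 E2F match, 21 bases after the start. The NUP188 window held none of the 5 motifs, and the TPR window held CCAAT on the other strand at 165 and 79 bases before the start. RefSeq windows matched 28 of the 31 genes, in 36 windows, since 7 genes had more than 1. AHCTF1, GLE1 and NUP43 had none.

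Across the pore genes, ETS letters were the motif whose share lay furthest above that of all windows. They were present in 13 of 36 windows (36.1%), against 10.3% of all 35116 windows of the same length. The other shares were 11.1% against 5.78% for NRF1, 27.8% against 15.2% for CHR, 38.9% against 34.6% for CCAAT and 2.78% against 1.15% for E2F letters. All of these shares count windows, and windows of the same gene can overlap and hold the same site. This was so in SEC13 for ETS and in NUP98 for CHR and CCAAT. Counted by gene, ETS letters were present in 12 of 28, CHR in 8 and CCAAT in 11. ETS letters occurred in 6 of 16 raised genes with a window and in 6 of the other 12, and CHR letters in 6 of 16 and 2 of 12. These are matches of letters, given as a description without a test.

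The Y complex, which builds the outer rings of the scaffold, had 6 of 9 genes raised and none lowered, with a median log2 fold change of 0.29. The share raised was 66.7% here and in the basket, 100% in the inner ring and 50% in the membrane ring and the channel. It was 12.0% over all genes and 23.0% over those at least as abundant as the scarcest member. The transcript of NUP98 also encodes NUP96, a subunit of the Y complex, but was counted with the channel genes only. It was not called (log2 fold change -0.04), and all counts, medians, sums and ratios given for the Y complex leave it out. NUP43 (ENSG00000120253, chromosome 6, 149724315 to 149749665, GRCh38), a propeller-shaped subunit on a short arm of the Y, was at 72.1, 66.2 and 67 CPM in controls 1 to 3 and 89.4, 96.1 and 95.4 CPM in the treated libraries 1 to 3. The groups did not overlap, and its log2 fold change was 0.45 ± 0.06 (SE, adjusted p = 0.00171). SEC13 (ENSG00000157020, chromosome 3, 10293131 to 10321178), which also serves in the COPII coat of vesicles that leave the endoplasmic reticulum, was at 130.3, 109.7 and 111 CPM in the controls and 153, 157 and 168 CPM after formononetin. Its change was also 0.45 (± 0.08, adjusted p = 0.00694), with control replicate 1 nearest to the formononetin libraries. NUP85 (chromosome 17, 75205659 to 75235758), which sits near the hub of the Y, was at 37, 37.1 and 37.1 CPM in the controls and 52.9, 49.8 and 46.5 CPM after formononetin (0.42 ± 0.06, adjusted p = 0.00387). NUP43 shares 223 exon bases with PCMT1 on the other strand and SEC13 shares 206 with GHRLOS. The strand setting of the counting is not given in the sources used here. PCMT1 held 1379, 1743 and 1543 raw counts in the controls and 2131, 2436 and 2587 in the deeper formononetin libraries. GHRLOS held 391, 296 and 447 against 541, 396 and 432. Their part in the changes of NUP43 and SEC13 was not tested.

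NUP107, NUP133 and NUP160, which form the stem and an arm of the Y, were also raised. NUP107 was at 49.9, 48.9 and 42 CPM in the controls and 60.8, 59 and 58.7 CPM after formononetin (0.34 ± 0.07, adjusted p = 0.0173). Its call was lost without formononetin replicate 1 or 3 (highest adjusted p 0.059). NUP133 was at 50.8, 58.3 and 51.9 CPM against 64.9, 63.1 and 61.3 CPM (0.23 ± 0.07, adjusted p = 0.0449), and NUP160 at 114, 122 and 117 CPM against 138, 135 and 128 CPM (0.19 ± 0.05, adjusted p = 0.0354). The groups of both genes did not overlap, but each call was lost when any library but control replicate 2 was left out, with adjusted p up to 0.141 for NUP133 and 0.168 for NUP160 over all settings.

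The remaining Y complex genes were not called. AHCTF1, which encodes ELYS, the protein that brings the Y complex to chromatin when pores reform after mitosis, was at 143, 175 and 149 CPM in the controls and 169, 154 and 155 CPM after formononetin. The groups overlapped, and the 95% interval of its log2 fold change ran from -0.16 to 0.23. SEH1L, a propeller protein shared with the GATOR2 complex of amino acid sensing, had an interval of -0.02 to 0.22. NUP37 was the least abundant gene of this group and the least precise of all members, at 13.2, 14.9 and 15.5 CPM in the controls and 18.1, 21.1 and 14.2 CPM after formononetin. Its interval of -0.05 to 0.64 spans both no change and the largest change among the members.

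The inner ring, which lies against the membrane between the outer rings, was the only subcomplex with all of its genes raised, 5 of 5, with a median log2 fold change of 0.37. NUP155 (ENSG00000113569, chromosome 5, 37288137 to 37371181), which contacts the membrane, changed most of all members. It was at 73.5, 68.3 and 71.8 CPM in the controls and 111, 108 and 109.9 CPM after formononetin, a rise of 0.62 ± 0.05 (adjusted p = 0.000322). NUP188 (ENSG00000095319, chromosome 9, 128947699 to 129007096), a large solenoid protein, was at 139, 148 and 143 CPM in the controls and 194, 202 and 198 CPM after formononetin (0.47 ± 0.04, adjusted p = 0.00056). NUP205 (ENSG00000155561, chromosome 7, 135557919 to 135648757), a solenoid related to NUP188, was at 112, 108 and 108 CPM against 141, 141 and 142 CPM (0.37 ± 0.04, adjusted p = 0.00102). In these 3 genes the lowest formononetin library was well above the highest control library.

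NUP93 and NUP35 complete the ring. NUP93, which holds the channel proteins to the scaffold, was at 64.8, 64.5 and 64.1 CPM in the controls and 80, 87.2 and 77.2 CPM after formononetin (0.34 ± 0.06, adjusted p = 0.00656). NUP35, a small membrane-binding linker, was at 24.8, 21.4 and 20.6 CPM against 28.2, 27.4 and 29.1 CPM (0.34 ± 0.08, adjusted p = 0.028). The call of NUP35 was lost under upper quartile scaling, with GC and length adjustment and with the replicate number as a block. It was also lost when any library but control replicate 1 was left out, with adjusted p up to 0.0918 over all settings. The summed level of the 5 genes was 414.5, 410.3 and 407.9 CPM in the controls and 554.3, 566.7 and 556.6 CPM after formononetin, a ratio of 1.36. The same ratio was 1.19 for the Y complex.

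**Figure D2:**
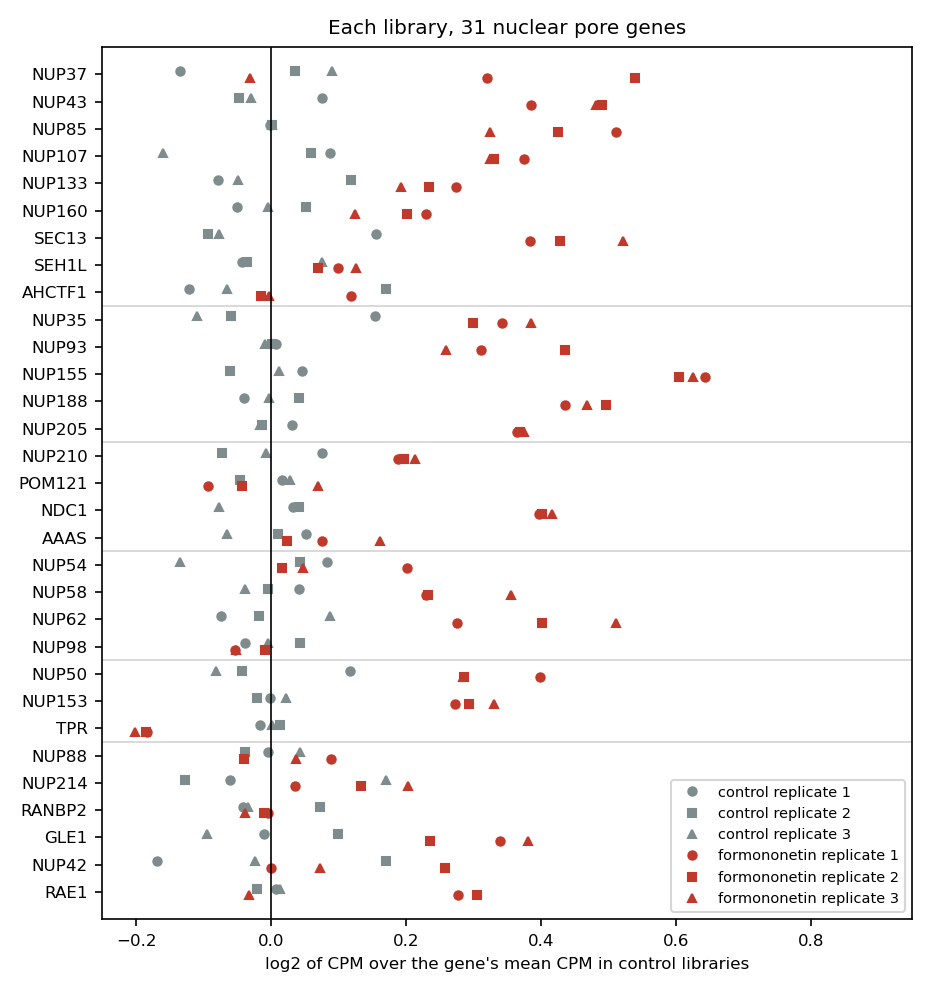
Each point is 1 library, placed by the log2 of its CPM over the mean CPM of the gene in control libraries (horizontal axis), with control libraries in grey and formononetin libraries in red; grey lines part the 6 subcomplexes in the order used in the text. In the inner ring all red points lie right of the grey ones, while the 2 colours mix for 5 of the 6 cytoplasmic filament genes at the bottom.

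The membrane ring had 2 of 4 genes raised and a median of 0.14. NDC1 (ENSG00000058804, chromosome 1, 53765460 to 53838860), a protein of several membrane spans that anchors the scaffold, was at 46.3, 46.6 and 42.9 CPM in the controls and 59.6, 59.8 and 60.4 CPM after formononetin. It rose by 0.40 ± 0.05 on the log2 scale (adjusted p = 0.00243), with no overlap between groups. NUP210, a large membrane glycoprotein of the pore, was at 206, 186 and 194 CPM against 223, 224 and 227 CPM (0.20 ± 0.05, adjusted p = 0.0243). That call was lost under upper quartile scaling and with the replicate number as a block. It was also lost when any library but control replicate 1 was left out, with adjusted p up to 0.117 over all settings. AAAS, which encodes aladin, a propeller protein held at the pore by NDC1, was not called (interval -0.06 to 0.24).

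POM121, an integral membrane nucleoporin, was at 145, 139 and 146 CPM in the controls and 134, 139 and 151 CPM after formononetin. The groups overlapped and the interval ran from -0.15 to 0.11. Its near-identical copy POM121C was at 131, 114 and 126 CPM against 117, 117 and 123 CPM, and the split of reads between the copies is uncertain. Summed with its copy, POM121 changed by -0.04 (adjusted p = 0.687).

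Of the 4 channel genes 2 rose, and the median was 0.18. NUP62 (ENSG00000213024, chromosome 19, 49906825 to 49929763), the core of the FG trimer that fills the channel, was at 62.3, 64.8 and 69.7 CPM in the controls and 79.4, 86.6 and 93.5 CPM after formononetin (0.40 ± 0.07, adjusted p = 0.0095). Its trimer partner NUP58 was at 52.8, 51.2 and 49.9 CPM against 60.1, 60.3 and 65.7 CPM (0.27 ± 0.06, adjusted p = 0.015). The call of NUP58 was lost with the replicate number as a block and without control replicate 3 or formononetin replicate 3 (highest adjusted p 0.0557). The third partner, NUP54, was at 28.5, 27.7 and 24.5 CPM against 31, 27.2 and 27.8 CPM and was not called, with an interval of -0.11 to 0.29. Differences in the response of these partners were not tested. NUP62 shares 626 exon bases with ATF5 on the other strand and 336 with IL4I1 on the same strand. IL4I1 held 3 to 15 counts per library. ATF5 held 827, 1043 and 1005 raw counts in the controls and 1100, 1105 and 1010 after formononetin.

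NUP98 was among the most precisely measured genes without a call. Its transcript encodes a precursor that is cut into NUP98, an FG protein found at both faces, and NUP96, a scaffold subunit of the Y complex, which gene counts cannot separate. It was at 191, 203 and 196 CPM in the controls and 189.5, 195 and 189.7 CPM after formononetin. The interval of -0.13 to 0.06 lies below the change of every inner ring gene. Within a library, where scaling plays no part, the ratio of NUP155 to NUP98 counts was 0.384, 0.337 and 0.366 in control and 0.587, 0.554 and 0.579 in formononetin libraries, a description of 2 genes picked for their calls.

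All 3 basket genes were called, in both directions. NUP153 (ENSG00000124789, chromosome 6, 17615035 to 17706834), which fixes the basket to the pore and binds importins, was at 187, 184 and 189.5 CPM in the controls and 225, 229 and 235 CPM after formononetin (0.30 ± 0.04, adjusted p = 0.00203). NUP50, a mobile partner of NUP153 that promotes release of import cargo, was at 68.6, 61.4 and 59.8 CPM against 83.4, 77.1 and 77.1 CPM (0.32 ± 0.07, adjusted p = 0.0152). The call of NUP50 was lost with the omission of control replicate 2 or 3 or formononetin replicate 1 (highest adjusted p 0.0555).

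TPR (ENSG00000047410, chromosome 1, 186311652 to 186375693), the coiled-coil protein that forms the basket filaments, went the other way. It was at 277, 283 and 281 CPM in the controls and 247, 247 and 244 CPM after formononetin, a fall of 12.3% (log2 fold change -0.19 ± 0.03, adjusted p = 0.00875). All formononetin libraries lay below all control libraries, and the call held in all 19 alternative settings (log2 fold change -0.27 to -0.15, adjusted p up to 0.0383). The ratio of NUP153 to TPR counts was 0.672, 0.65 and 0.675 in control and 0.913, 0.927 and 0.962 in formononetin libraries, a description of 2 genes picked for their opposite calls.

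Of the 6 genes of the cytoplasmic filaments and RNA export platform, 1 rose, and the median was 0.12. The 16.7% raised lay between the 12.0% of all genes and the 23.0% of those at least as abundant as the scarcest member. GLE1 (ENSG00000119392, chromosome 9, 128504700 to 128542288), which with inositol hexakisphosphate activates the helicase that strips export factors from mRNA, was at 35.6, 38.4 and 33.5 CPM in the controls and 45.3, 42.2 and 46.7 CPM after formononetin (0.32 ± 0.07, adjusted p = 0.0202). The call was lost with the omission of control replicate 1 or 3 or formononetin replicate 1 or 3. It was also lost under upper quartile scaling, with GC and length adjustment and with the replicate number as a block (adjusted p up to 0.0764 over all settings). RANBP2, the filament protein that binds Ran and acts as a SUMO ligase, was the most abundant member at 394, 427 and 396 CPM in the controls and 404, 403 and 395 CPM after formononetin. Its groups overlapped and the interval ran from -0.12 to 0.08.

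NUP214 and NUP88, partners that bind the export receptor XPO1 at the cytoplasmic face, had intervals of -0.08 to 0.33 and -0.11 to 0.17. NUP42, a small FG protein that binds GLE1, had an interval of -0.17 to 0.39 at 10.5 to 14.2 CPM. RAE1, a propeller protein that binds NUP98 in mRNA export, was at 56.5, 55.4 and 56.8 CPM in the controls and 68.1, 69.5 and 55 CPM after formononetin. Formononetin replicate 3 alone lay slightly below every control, and without it RAE1 was called (adjusted p = 0.022). RANBP2 shares long stretches with the RGPD genes. Of these, RGPD1 fell from 11, 11.4 and 11.2 CPM to 6.9, 6.21 and 5.98 CPM (-0.82 ± 0.10, adjusted p = 0.00166). RGPD2, named here after its values were seen, fell from 9.44, 9.58 and 9.29 CPM to 5.21, 5.22 and 4.86 CPM (-0.89 ± 0.10, adjusted p = 0.00106). The split of reads among the RGPD copies is uncertain, so these 2 falls need not be independent. RGPD3, RGPD5, RGPD6 and RGPD8 were not called, and RGPD4 was too low to test. In all, 2 of 10 tested copies and relatives of the members fell and 1 rose, NUP62CL (1.28 ± 0.23, adjusted p = 0.00891), at no more than 2.32 CPM. That is 30% called, against 20.7% of all genes tested. RANBP2 summed with the RGPD genes had a log2 fold change of -0.04 (adjusted p = 0.525).

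**Figure D3:**
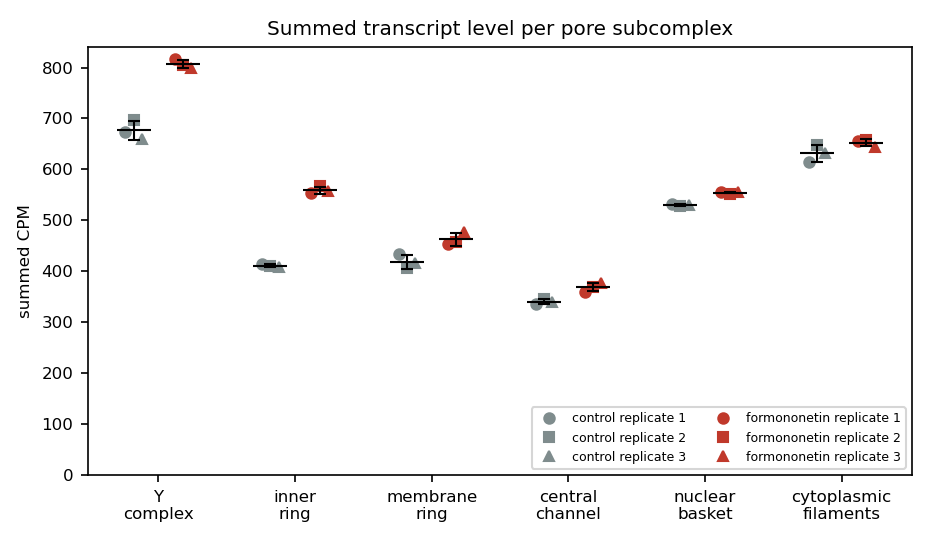
Summed CPM (vertical axis, from 0) of the genes of each pore subcomplex, with 1 point per library and black bars for the mean and SD over 3 libraries of a group. The inner ring moved from a mean of 410.9 to 559.2 CPM and the cytoplasmic filaments from 631.3 to 652.4 CPM.

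Ratios of summed counts within a library are given as a description, for groups picked with their changes known. Inner ring counts over cytoplasmic filament counts were 0.674, 0.634 and 0.646 in control and 0.845, 0.863 and 0.864 in formononetin libraries, ratios that no scaling of libraries can alter. RANBP2 made up 64.2% of the cytoplasmic sum in control libraries. Without RANBP2, a choice made after seeing the data, the other 5 genes summed to 225.8 ± 8.14 CPM in the controls and 251.9 ± 2.5 CPM after formononetin (SD, n = 3), a ratio of 1.12 in place of 1.03. Inner ring counts over theirs were then 1.87, 1.86 and 1.73 against 2.2, 2.23 and 2.23. Inner ring counts over Y complex counts were 0.615, 0.589 and 0.618 against 0.679, 0.704 and 0.696. All 19 called members had groups that did not overlap, an outcome closely tied to the call itself, and the groups of all 12 uncalled members overlapped. Of the 31 members, 18 thus had groups apart with formononetin higher and 1 with formononetin lower. Over all genes tested the groups were apart in 39.4%, with formononetin higher in 20.8% and lower in 18.7%, shares not matched for abundance. Summed over the 31 genes, the level was 3004, 3035 and 2986 CPM in the controls and 3395, 3409 and 3409 CPM after formononetin, 13.2% higher. With library totals alone the ratio was 1.17, and with upper quartile scaling 1.07.

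The 12 genes without a call were not shown to be constant. Their 95% intervals all held 0 and together ran from -0.17 to 0.64 on the log2 scale. For 7 of them the upper bound lay below 0.27, the median change of the members. Of the 18 rises and 1 fall, 11 calls held under all 19 alternative settings, those of NUP43, NUP85, SEC13, NUP93, NUP155, NUP188, NUP205, NDC1, NUP62, NUP153 and TPR. No setting dealt with genes on the other strand, such as those that overlap NUP43, SEC13 and NUP62. Among the 11 stable calls, NUP153, NUP188 and TPR share exon bases in the same way, 558 with NUP153-AS1, 61 with SH3GLB2 and 670 with PRG4. These 3 partners held 42 to 132, 538 to 1004 and 5 to 23 raw counts per library. Some uncalled members, such as NUP88 and POM121, also overlap genes on the other strand.

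Levels per exon length differed by 12.2-fold among the members in control libraries. CPM per kilobase of annotated exon, a level that can be set side by side across genes, was highest for RANBP2 at 33.0 ± 1.48 (SD, n = 3), followed by NUP153, and then NUP210 at 23.9 ± 1.24 and TPR at 22.7 ± 0.228. The lowest were NUP58 at 4.92 ± 0.139, NUP37 at 4.16 ± 0.332 and NUP42 at 2.71 ± 0.323. Of 30 neighbouring pairs in the order, 24 differed by no more than the sum of their SDs, so most of the order is not resolved. In formononetin libraries NUP153 ranked first at 38.1 ± 0.79 and RANBP2 second at 32.6 ± 0.417, SEC13 moved from rank 5 to rank 3 and TPR from rank 4 to rank 7. NUP155 moved from rank 20 at 7.71 ± 0.29 to rank 15 at 11.9 ± 0.157. The length is the union of all annotated exons, which understates genes with long, little-used exons. The level and rank of RANBP2 also depend on how reads shared with the RGPD genes were assigned, which is not given in the sources used here.

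**Figure D4:**
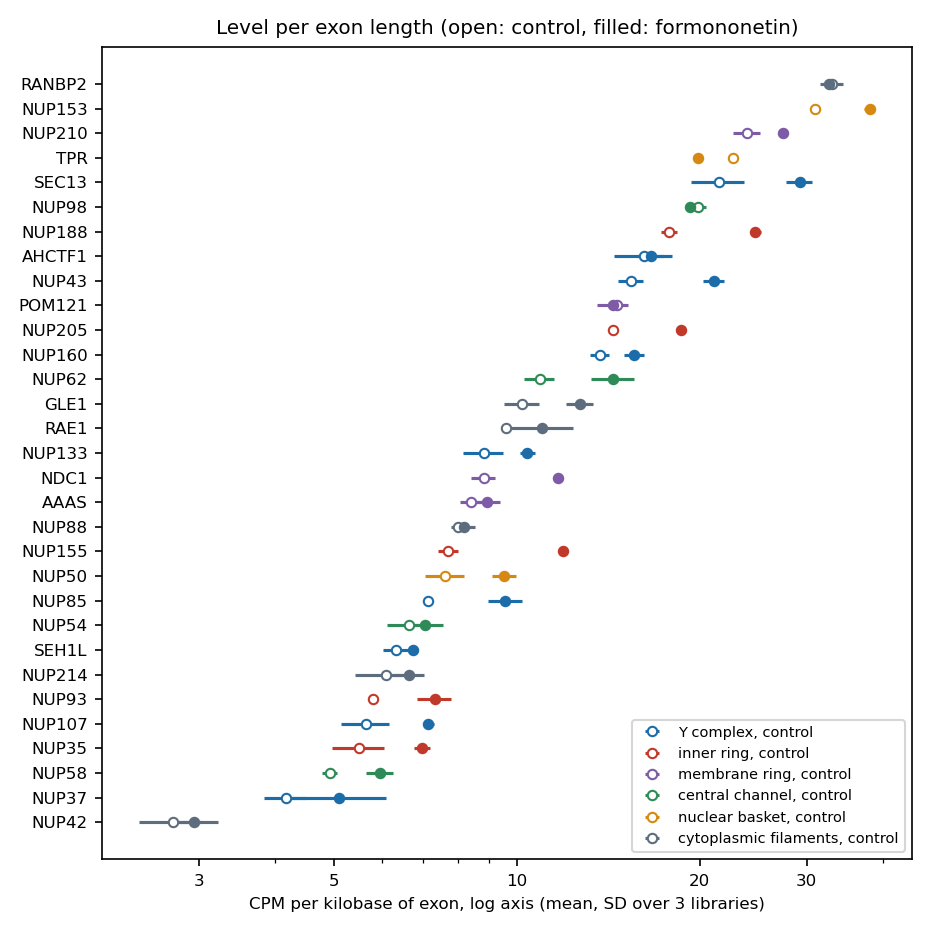
CPM per kilobase of exon (horizontal log axis) of 31 genes in the order of their control level, as the mean and SD over 3 libraries, with open points for control and filled points for formononetin libraries and colours for the subcomplex. Inner ring genes (red) are spread from 5.5 to 17.8 in control, and each filled red point lies to the right of its open one.

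Genes that work with the pore were compared in lists drawn up by function. Among importins, which carry cargo inwards, 8 of 18 rose and 2 fell, and the list's median was 0.13 on the log2 scale. That is 55.6% called, against 20.7% of all genes and 36.3% of those at least as abundant as the scarcest pore gene. IPO13, which also exports some cargo, was at 24.9, 25.3 and 26.2 CPM in the controls and 35.4, 39.1 and 36.1 CPM after formononetin (0.53 ± 0.06, adjusted p = 0.00166). IPO9, a carrier of histones and actin, changed by 0.41 ± 0.06, and KPNA5, an importin alpha, by -0.40 ± 0.09, a call lost with the omission of control replicate 2 or formononetin replicate 1 (highest adjusted p 0.0544). The other lowered importin was at no more than 1.8 CPM in any library, below the scarcest pore gene. Its call was lost in 6 of 19 alternative settings. Among the raised importins, the least stable call was lost in 12 settings. Raised importins numbered 5 under upper quartile scaling.

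Among exportins 4 of 7 rose, none fell, and the median was 0.15, with 57.1% called. The share called was 20.7% over all genes and 36.3% over those at least as abundant as the scarcest pore gene. CSE1L, which returns importin alpha to the cytoplasm, was at 179, 172 and 162 CPM in the controls and 233, 237 and 236 CPM after formononetin (0.46 ± 0.05, adjusted p = 0.000869). XPO6, the exporter of actin, changed by 0.41 ± 0.07, and XPO1, the main protein exporter, was at 162, 158 and 157 CPM against 203, 198 and 199.7 CPM (0.33 ± 0.04, adjusted p = 0.00121). The call of the remaining raised exportin was lost in 10 of 19 alternative settings. Of 6 genes of the Ran cycle, which gives transport its direction, 3 rose and 1 fell (median 0.15, 66.7% called, against the same 20.7% and 36.3%). RANBP1 changed by 0.44 ± 0.10, RAN itself by 0.34 ± 0.08 and RANGAP1, which makes Ran hydrolyse its GTP, by 0.29 ± 0.05. The call of RANBP1 was lost with the replicate number as a block and without control replicate 2 or formononetin replicate 3 (highest adjusted p 0.0645). That of RAN was lost without control replicate 3 or any formononetin library (highest adjusted p 0.0838 over all settings).

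mRNA export factors had 3 of 17 genes raised and 1 lowered, with a median of 0.05. The share called, 23.5%, lay near the 20.7% of all genes and below the 36.3% of the abundant genes. NXT1, the partner of the mRNA export receptor NXF1, changed by 0.42 ± 0.09 and THOC3, of the complex that couples transcription to export, by 0.29 ± 0.07. The helicase gene DDX39B changed by -0.25 ± 0.07 (adjusted p = 0.0453). The call of NXT1 was lost with the omission of control replicate 3 or formononetin replicate 1 or 3 (highest adjusted p 0.0617), that of THOC3 without any library but control replicate 1 (up to 0.0936 over all settings), and that of DDX39B without any library but formononetin replicate 2 (up to 0.135 over all settings). The summed level of the list was 1172 ± 28 CPM in the controls and 1141 ± 23.1 CPM after formononetin (SD, n = 3).

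Lamina and nuclear envelope genes had 4 of 15 raised and 1 lowered, with a median of 0.14. The share called, 33.3%, lay above the 20.7% of all genes and below the 36.3% of the abundant genes. The share raised was 26.7%, against 12.0% of all genes and 23.0% of the abundant genes. LMNB1, a lamin of the inner face of the envelope, was at 50.4, 47.2 and 41.9 CPM in the controls and 72.3, 75.7 and 70.9 CPM after formononetin (0.65 ± 0.07, adjusted p = 0.00135), slightly more than the change of NUP155. TMPO, which ties lamins to chromatin, changed by 0.60 ± 0.07 (adjusted p = 0.00179). SYNE1, a giant protein that links the envelope to the cytoskeleton, was at 87.4, 102 and 101 CPM in the controls and 57.9, 59.3 and 56.2 CPM after formononetin (-0.74 ± 0.07, adjusted p = 0.000628). These 3 genes showed no overlap between groups. Medians of all lists in this and the preceding paragraphs lay below the 0.27 of the pore genes, a difference that was not tested.

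**Figure D5:**
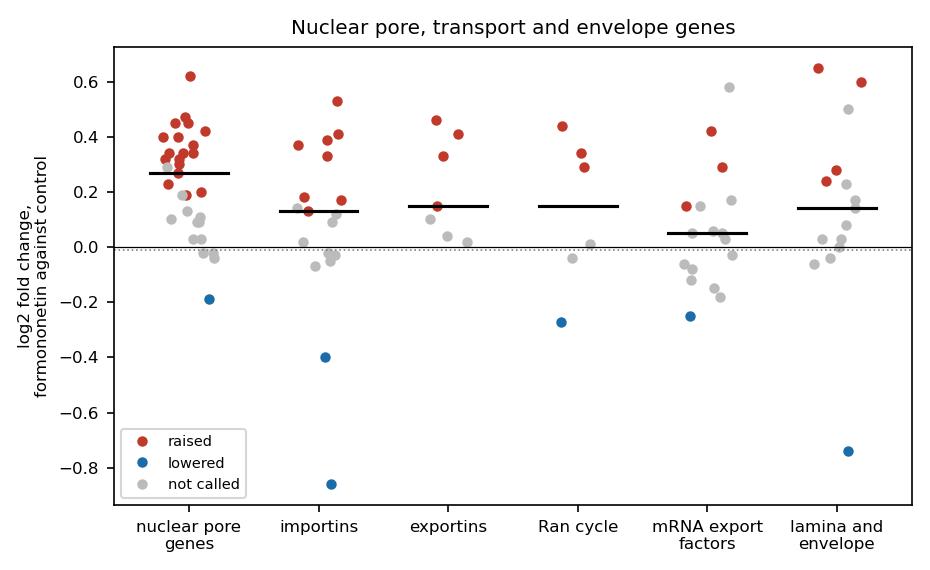
Log2 fold change of formononetin against control (vertical axis) for the 31 nuclear pore genes and for lists of transport and envelope genes, with 1 point per gene, red for raised, blue for lowered and grey for not called, and a black line at each median; the dotted line is the median of all genes. The medians run from 0.05 for mRNA export factors to 0.27 for the pore genes.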

How the data were processed

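A stranded mRNA kit was used on 500 ng of RNA, according to the protocols in the labels. Raw counts of each gene were deposited by the authors. The submitters' processing notes name GRCh38, STAR 2.5.3a and StringTie 1.3.1c with no role, while the counter, strand setting and annotation were not given in the sources used here. Of 62729 rows, 2165 assembled loci name no gene (3.82% to 5.62% of counts per library) and entered neither library sizes nor tests.

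Symbols came from a gene name table (60295 identifiers matched), coordinates, exon lengths and GC content from GENCODE 29 (GRCh38), and promoter windows from RefSeq (GRCh38.p14). Genes were filtered with filterByExpr, scaled with TMM and tested with edgeR 4.0.16 in R 4.3.3 (quasi-likelihood F test, 3 against 3 libraries, group as the only term, two-sided, Benjamini-Hochberg over all genes). CPM uses TMM-scaled library sizes. The SE was computed as absolute log2 fold change over the square root of the F statistic, and 95% intervals use the fitted degrees of freedom. No pair of libraries within a group agreed within counting noise, so none was merged.

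Alternatives were DESeq2 1.42.0, limma 3.58.1 (voom), other scalings and filters, the replicate number as a block and each library left out. Further alternatives were assembled loci kept, copies or genes overlapping on the same strand summed, and adjustment for GC content and exon length (known for all 31 members). Genes overlapping on the other strand were not summed. The members and lists were chosen with earlier results of these data known. Related genes were named by rule: the 3 largest called changes per list with a mean log2 CPM of at least 3. Other called genes of these lists are counted only, except RGPD2 and NUP62CL, named after their values were seen, and POM121C, named as a copy. Figures were drawn with matplotlib 3.10.9.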

Additional observations from a re-analysis of the deposited data

How the results depend on the processing

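The number of raised members was 11 to 15 with 1 library left out, 13 under upper quartile scaling and 12 with the replicate block, and 1 member was lowered in all 19 settings. The median log2 fold change of the members, 0.27, was 0.26 with limma voom, 0.19 under upper quartile scaling, 0.32 with library totals only, 0.28 centred on the median gene, 0.30 without a low-count filter, 0.26 with a filter of 1 CPM in 3 libraries, 0.29 with assembled loci, 0.21 with GC and length adjustment, and 0.23 to 0.29 with 1 library left out. The summed ratio, 1.13, was 1.17 with library totals only, 1.07 under upper quartile scaling and 1.13 to 1.14 with 1 library left out. Over all genes, 1703 to 2189 were raised and 1272 to 1478 lowered with 1 library left out. No member was reversed in any setting, and of 12 uncalled members RAE1 alone was called in 1 setting. With the replicate block 1921 genes were raised and 1362 lowered, and same-numbered libraries did not deviate together (r of -0.002, 0.009 and -0.022 across genes; control replicate 1 correlated best with formononetin replicate 3), so the numbers are not taken to pair the libraries. The block ended the calls of NUP133, NUP160, NUP35, NUP210, NUP58, GLE1, RANBP1, THOC3 and DDX39B. Upper quartile scaling ended those of NUP133, NUP160, NUP35, NUP210, GLE1, RAN and THOC3, and GC and length adjustment those of NUP133, NUP160, NUP35, GLE1, RAN and THOC3. Without a low-count filter NUP133 and DDX39B were lost, and DDX39B also with library totals only, centring or assembled loci. With RANBP2 left out of the sum, chosen after seeing the data, the fold of the ratio of inner ring to cytoplasmic filament counts was 1.22 in place of 1.32. The cause of these differences was not tested.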
